A study of Mus musculus with 6 samples.

Results

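The mRNA of NRF2, of its inhibitor KEAP1 and of 8 antioxidant target genes was compared between macrophages that lack the catalytic subunit of protein phosphatase 2A (PP2A) and WT macrophages. The 10 genes, *Nfe2l2*, *Keap1*, *Hmox1*, *Nqo1*, *Gclc*, *Gclm*, *Srxn1*, *Txnrd1*, *Prdx1* and *Slc7a11*, were taken by symbol from the deposited RNA-Seq table of 55453 genes, and all 10 were among the 13680 genes with enough reads to be tested. Bone marrow-derived macrophages (BMDM), which are grown in culture from the marrow of mice, were sequenced as 3 PP2A KO and 3 WT libraries. The PP2A KO cells came from *LysM cre PP2Ac fl/fl* mice, in which the lysozyme 2 promoter, active in myeloid cells, drives a Cre recombinase that removes exon 1 of *Ppp2ca*, the gene of the catalytic subunit PP2Ac. The WT cells came from purchased C57BL/6 mice without Cre or floxed alleles, and the knockout line was on the same background, so that the presence of Cre and the deletion cannot be told apart. The study used young mice of both sexes and grew BMDM with M-CSF or with medium from L929 fibroblasts, without saying which was used here. In all 6 libraries *Xist* had at most 3 counts and 4 Y-linked genes were expressed, at like levels in both groups. The labels give no treatment. The study describes its BMDM RNA-Seq as made after stimulation with cGAMP, the ligand of STING, and both groups were taken as stimulated, with no unstimulated group analysed here. The study reports biological triplicates as the rule for its cell-based experiments. It does not say that the libraries of a group came from separate mice. The p-values therefore measure only the spread between these samples, which may not be that between mice.

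NRF2 is a transcription factor that is made continuously and is destroyed as a protein. KEAP1 hands it to a CUL3 ubiquitin ligase, and electrophiles or oxidants that modify KEAP1 let NRF2 build up, enter the nucleus and bind antioxidant response elements (ARE) with a small MAF partner. Its targets supply glutathione, run the thioredoxin and peroxiredoxin cycle, break down heme and reduce quinones. In macrophages the pathway is known for limiting oxidative damage during inflammatory activation. Transcript levels, which are all that was measured here, do not give the amount of NRF2 protein.

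The genes are shown with the stretch upstream of 4 of them, because the results below contrast genes that share a pathway, and the ARE and the element of ATF4, another activator of *Slc7a11*, are letters in these promoters. Promoter windows of 250 bases before the RefSeq gene start (build GRCm38.p6) were available for 8 of the 10 genes, and *Hmox1* and *Gclc* had none. Each line below gives 60 bases read 5' to 3' on the strand of the gene, with the matched letters in capitals and positions counted back from the base before the start, which is -1. *Srxn1* carries an ARE that contains an AP-1 site (TGANTCAGC) at positions -45 to -37, in chr2:152105453-152105512 on the plus strand. *Gclm* carries the ARE core (TGACNNNGC, here on the opposite strand) at positions -134 to -126, in chr3:122245397-122245456 on the plus strand. *Prdx1* carries both forms in the same 9 letters, on the opposite strand and overlapping an AP-1 site (TGANTCA), at positions -133 to -125, in chr4:116685440-116685499 on the plus strand. *Slc7a11* carries 2 matches to the ATF4 element core (TGATGNAA), 1 on each strand, at positions -66 to -59 and -47 to -40, in chr3:50443637-50443696 on the minus strand.
Srxn1: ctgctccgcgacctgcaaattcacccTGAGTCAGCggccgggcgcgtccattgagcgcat
Gclm: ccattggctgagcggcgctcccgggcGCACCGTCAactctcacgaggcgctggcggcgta
Prdx1: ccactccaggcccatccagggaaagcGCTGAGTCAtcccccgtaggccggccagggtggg
Slc7a11: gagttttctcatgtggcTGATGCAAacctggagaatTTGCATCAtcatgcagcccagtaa
On either strand, at least 1 of the ARE forms was found in 5 of the 10 windows of these 8 genes (*Gclm*, *Nfe2l2*, *Prdx1*, *Srxn1* and 1 of the 3 windows of *Txnrd1*), against 10.7% of 32851 promoter windows. The ARE with the AP-1 site was in 2 of the 10 windows, against 1.02% of windows, and the AP-1 site itself, which each of these contains, was in the same 2, against 6.75%. The ATF4 element core was in 1 of the 10, against 3.45% of windows. These matches describe letters in a short window and do not show binding. *Keap1* and *Nqo1* had no match to any of the searched letters in theirs.

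Library totals ran from 35257156 to 47390899 counts, and 30767 genes of the table had no count in any library. *Ppp2ca*, the targeted gene, had 47, 33 and 38 counts in the PP2A KO libraries and 10654, 8913 and 8279 in the WT libraries, so every label fits its genotype. Of the genes tested, 2470 (18.1%) were higher and 2604 (19.0%) lower in PP2A KO at a false discovery rate (FDR) under 0.05 by edgeR's quasi-likelihood test, 5074 (37.1%) in all, with a median log2 fold change of -0.02. Counts of called genes among the pathway genes are read against these shares. Results given with a replicate block come from a second fit that paired libraries by replicate number, a pairing that was assumed. When libraries were scaled by their totals alone, an alternative added after the data were seen, 1503 genes were higher and 6125 lower, so that 19.7% in place of 48.7% of the called genes were higher, and the median moved to -0.24. All 8 macrophage markers were detected, 2 of them rose and their sum was 8623 to 8733 CPM (counts scaled to a common library size) in PP2A KO against 7279 to 7840 CPM in WT, although *Lyz2* itself was counted at only 8.86 ± 1.13 CPM (SD, n = 3) in PP2A KO and 7.30 ± 0.912 CPM in WT, a value that depends on how the counting step treated reads that also match paralogs, which was not tested. The 4 fibroblast markers all fell, and their sum was 22.7 to 33.4 CPM in PP2A KO and 74.9 to 118 CPM in WT. The 2 groups did not overlap in this sum, and its part in the results for the genes below was not tested. Markers of neutrophils, T and NK cells, B cells, dendritic cells, erythroid cells and mast cells each summed to at most 2.36 CPM in any library, with *Ly6g* and *Cd8a* at 0 throughout.

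At a common library size, PP2A KO libraries held more mRNA of NRF2 and of KEAP1 and less of 4 of the 8 target genes. By edgeR, 2 of the 10 genes rose (*Nfe2l2* and *Keap1*), 4 fell (*Slc7a11*, *Gclc*, *Gclm* and *Srxn1*) and 4 did not pass (*Hmox1*, *Nqo1*, *Txnrd1* and *Prdx1*), so that 6 of the 10 were called against 37.1% of all genes tested (18.1% higher and 19.0% lower). The median log2 fold change was -0.26 against -0.02 over all genes. The libraries of the 2 groups did not overlap, with PP2A KO higher, for 3 of the 10 genes against 24.0% of all genes tested, and, with PP2A KO lower, for 5 of the 10 against 26.8%, which makes 8 of the 10 in either direction against 50.9%. In a culture sequenced as a whole, fewer cells of a type and less RNA per cell cannot be told apart. The shifts were moderate. The largest was 0.69 on the log2 scale, for *Nfe2l2*. It stayed below the log2 fold change of 1 that the study set for genes upregulated in its BMDM RNA-Seq. At FDR under 0.01, 460 genes (3.36%) passed this size of change upward and 409 (2.99%) downward.

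**Figure D1:**
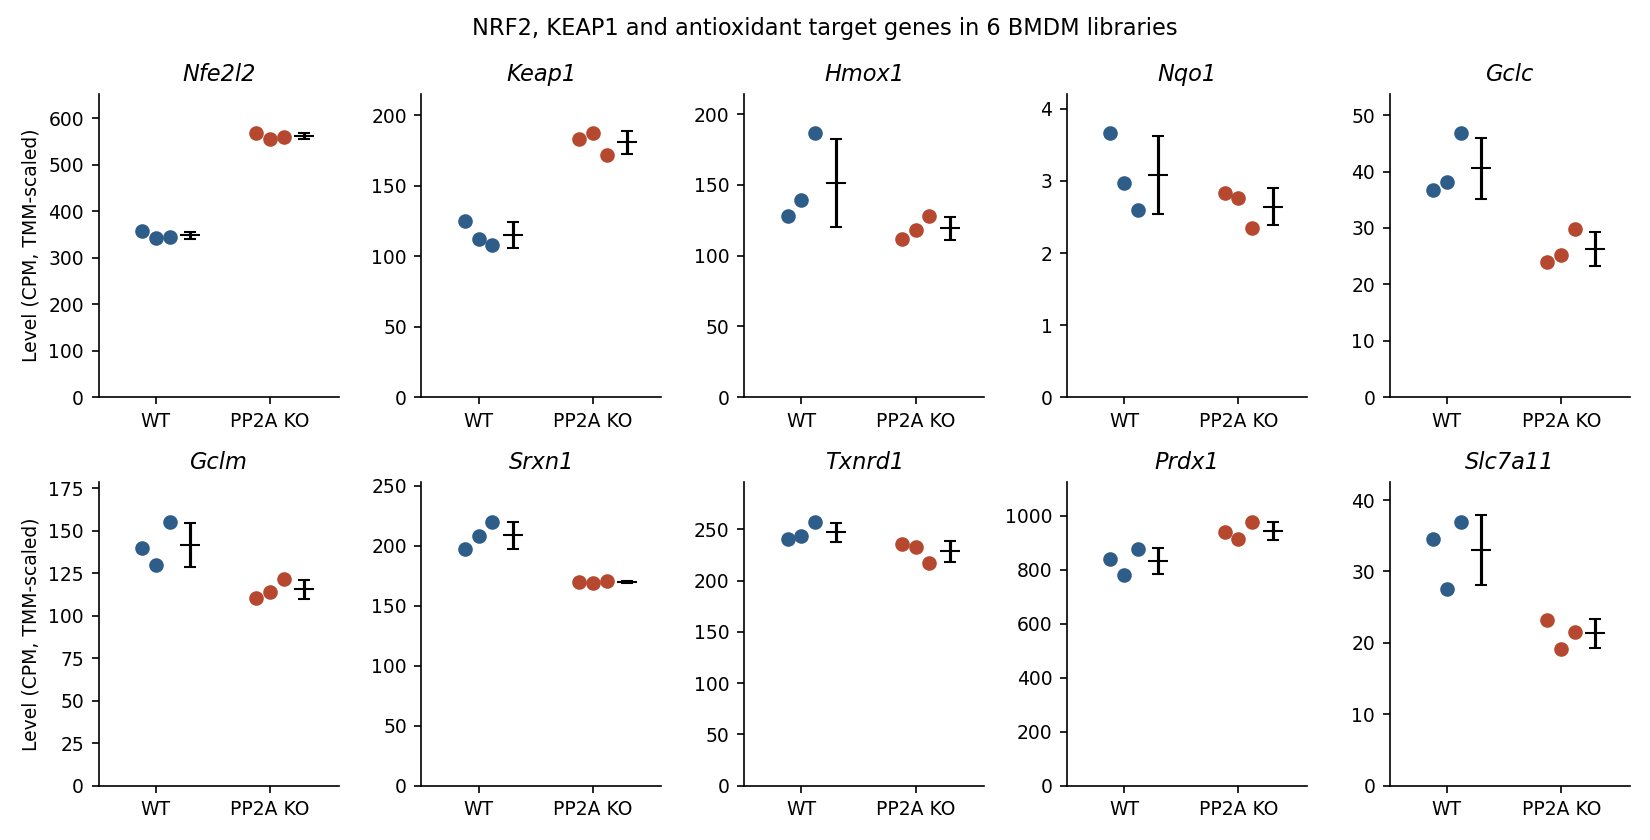
Level of each of the 10 genes in CPM with TMM scaling (vertical axis from 0, a separate scale for each gene) in the 3 WT and 3 PP2A KO libraries (points), with the group mean and SD beside them. The PP2A KO points of *Nfe2l2* and *Keap1* lie above all WT points, those of *Gclc*, *Gclm*, *Srxn1* and *Slc7a11* lie below them, and the groups overlap for *Nqo1* and, narrowly, for *Hmox1*.

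*Nfe2l2*, which encodes NRF2, lies on chromosome 2 from 75675513 to 75704641 (GRCm38, minus strand, 5 exons in its first transcript, the basis of all exon numbers below). Its level was 568, 555 and 559.7 CPM in the PP2A KO libraries and 357, 342 and 344 CPM in the WT libraries. The groups were far apart, and the libraries within each agreed closely. The mean was 561 ± 6.52 CPM (SD, n = 3) against 348 ± 8.21 CPM, a 1.61-fold difference with a log2 fold change of 0.69 (SE 0.0612, edgeR FDR 9.29e-05). *Keap1*, the adaptor that marks NRF2 for destruction, lies on chromosome 9 from 21229730 to 21239361 (minus strand, 6 exons). Its level was 183, 187 and 172 CPM in PP2A KO and 125, 112 and 108 CPM in WT. All 3 PP2A KO libraries were again above all WT libraries. The mean was 181 ± 7.93 CPM against 115 ± 9.08 CPM, a 1.57-fold difference with a log2 fold change of 0.65 (SE 0.0746, edgeR FDR 2.66e-04). The antisense gene *Gm16754* overlaps 10.9% of the *Keap1* exon bases but had at most 6 counts in any library.

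The 2 regulators rose by a like factor, and the ratio between them did not separate the groups. For each read on *Keap1* there were 3.10, 2.96 and 3.26 reads on *Nfe2l2* in the PP2A KO libraries and 2.86, 3.04 and 3.20 in the WT libraries. The 2 groups overlapped, with means of 3.11 ± 0.147 and 3.03 ± 0.174 (SD, n = 3; exact permutation p = 0.6, 2-sided). With 3 libraries against 3, this test cannot give a p below 0.1. The genes whose profiles over the 6 libraries were nearest to that of *Nfe2l2*, by the root mean square difference of log2 CPM centred on each gene's mean, were *Ppp1r11* (0.0130), *Ppp6r1* (0.0315) and *Irf5* (0.0384). Those nearest to *Keap1* were *Phyh* (0.0256), *Trim14* (0.0285) and *Stard3nl* (0.0288).

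The genes of the first steps of glutathione synthesis fell. *Slc7a11* encodes the light chain of the cystine/glutamate antiporter, which brings in the cystine that limits glutathione synthesis, and lies on chromosome 3 from 49892526 to 50443614 (minus strand, 12 exons). Its level was 23.2, 19.2 and 21.5 CPM in PP2A KO and 34.5, 27.5 and 37.0 CPM in WT. No library of the 1 group reached the range of the other. The mean was 21.3 ± 2.03 CPM against 33.0 ± 4.90 CPM, a log2 fold change of -0.63 (SE 0.114, edgeR FDR 0.00243). *Gclc*, the catalytic subunit of glutamate-cysteine ligase, which carries out the first step of glutathione synthesis, lies on chromosome 9 from 77754535 to 77794485 (plus strand, 16 exons). It was at 24.0, 25.2 and 29.8 CPM in PP2A KO and at 36.8, 38.2 and 46.8 CPM in WT. The groups were separate, with means of 26.3 ± 3.03 CPM and 40.6 ± 5.43 CPM. The log2 fold change was -0.62 (SE 0.11, edgeR FDR 0.00209), so that the scaled *Gclc* level in PP2A KO was 0.649 times that in WT.

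*Gclm*, the modifier subunit that raises the efficiency of the same ligase, lies on chromosome 3 from 122245557 to 122270732 (plus strand, 7 exons). It was at 111, 114 and 122 CPM in PP2A KO and at 139.8, 130.0 and 155 CPM in WT. These groups did not overlap either, but they were closer together, with means of 116 ± 5.57 CPM and 142 ± 12.8 CPM. The log2 fold change was -0.30 (SE 0.0786, edgeR FDR 0.0161), and the call was lost without PP2A KO replicate 1 (FDR 0.0588), without PP2A KO replicate 2 (0.0631) and without WT replicate 3 (0.0512). In the transcripts of *Gclm*, 3.92% of 50-base windows occur in other genes, mostly in *Ppia*, so some of its reads could have been assigned differently. The ratio of *Gclc* to *Gclm* counts was 0.217, 0.220 and 0.245 in PP2A KO and 0.263, 0.294 and 0.301 in WT, with means of 0.227 ± 0.0151 and 0.286 ± 0.0201 (exact permutation p = 0.1, 2-sided, the smallest value possible). *Slc3a2*, the heavy chain that carries the *Slc7a11* product to the membrane, had a log2 fold change of 0.14 (SE 0.0663, edgeR FDR 0.123). With the replicate block it was higher (FDR 0.0115). The ratio of *Slc7a11* to *Slc3a2* counts was 0.0360 ± 0.00404 in PP2A KO and 0.0617 ± 0.0112 in WT, without overlap (exact permutation p = 0.1, 2-sided, again the smallest possible). In every PP2A KO library *Slc7a11* lay below and *Slc3a2* above all WT libraries. This fixed the separation of their ratio in advance, so the ratio is not a further test. In all, 11 within-library ratios were computed, of which the 8 of a target to *Nfe2l2* are not given, because the rise of *Nfe2l2* fixes their direction also for a target that does not differ. With 3 libraries against 3, no adjusted p-value over these can pass 0.05.

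**Figure D2:**
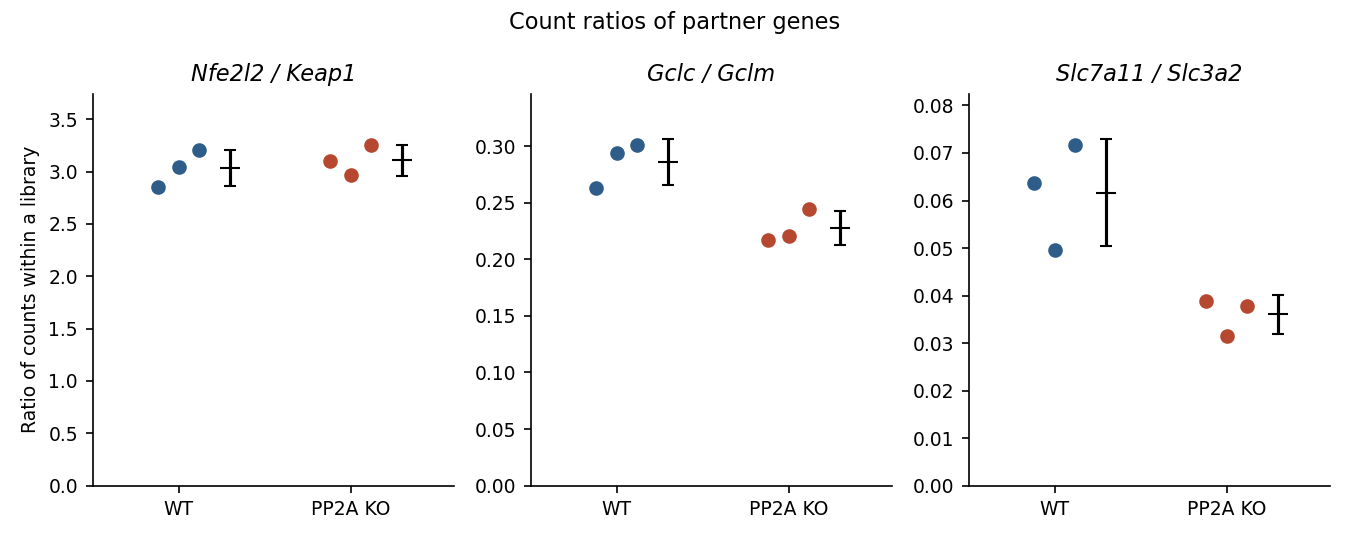
Ratio of the counts of 2 partner genes within each library (vertical axes from 0) for *Nfe2l2* to *Keap1*, *Gclc* to *Gclm* and *Slc7a11* to *Slc3a2*, with the mean and SD of the 3 libraries of each group. The groups overlap near 3 for the first ratio, and the PP2A KO points lie below all WT points for the other two.

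The thioredoxin and peroxiredoxin genes did not move together. *Srxn1*, the sulfiredoxin that repairs overoxidized peroxiredoxins, lies on chromosome 2 from 152105516 to 152111376 (plus strand, 2 exons). It was at 169.5, 169 and 171 CPM in PP2A KO and at 198, 208 and 220.2 CPM in WT. The PP2A KO libraries were almost equal, and each was below every WT library. The mean was 169.7 ± 0.766 CPM against 209 ± 11.4 CPM, a log2 fold change of -0.30 (SE 0.0641, edgeR FDR 0.00576). *Txnrd1*, the cytosolic thioredoxin reductase, lies on chromosome 10 from 82833951 to 82897712 (plus strand, 14 exons). Its levels of 236, 233 and 217 CPM in PP2A KO were below the 240.2, 244 and 258 CPM in WT by a small margin. The log2 fold change of -0.11 did not pass the test (SE 0.0658, 95% interval -0.26 to 0.04, edgeR FDR 0.221).

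*Prdx1*, the cytosolic peroxiredoxin that reduces hydrogen peroxide, lies on chromosome 4 from 116685544 to 116700822 (plus strand). Its first transcript has 5 exons and only 636 bases, where all its annotated exons cover 3043. Its level was 939.9, 912 and 977 CPM in PP2A KO and 839, 778 and 876 CPM in WT, without overlap. The mean was 943 ± 32.7 CPM against 831 ± 49.1 CPM, a log2 fold change of 0.18 (SE 0.0719) that did not pass (edgeR FDR 0.0749) and that passed with the replicate number as a block (FDR 0.0031). Its direction depended on the scaling, since library totals alone gave -0.03, which is 0.21 above the median of all genes under that scaling. In the *Prdx1* transcripts, 8.29% of 50-base windows occur in 39 other genes.

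*Hmox1*, heme oxygenase-1, which breaks heme into biliverdin, iron and carbon monoxide and is a common readout of NRF2 in macrophages, lies on chromosome 8 from 75093621 to 75100589 (plus strand, 5 exons). It was at 112, 118 and 128 CPM in PP2A KO and at 128, 139.7 and 187 CPM in WT. The highest PP2A KO library and the lowest WT library were almost equal, and WT replicate 3 stood highest. The means were 119 ± 8.20 CPM and 151 ± 31.0 CPM, and the log2 fold change of -0.34 did not pass (SE 0.129, 95% interval -0.63 to -0.05, edgeR FDR 0.0643). With the replicate number as a block it passed (-0.33, FDR 0.00125), and without WT replicate 3 it shrank to -0.16 (FDR 0.174). *Nqo1*, the quinone reductase that is the classical NRF2 target in other tissues, lies on chromosome 8 from 107388225 to 107403206 (minus strand, 6 exons) and was expressed at a low level, with 120, 91 and 98 counts in PP2A KO and 182, 129 and 109 in WT. These are 2.83, 2.76 and 2.35 CPM against 3.66, 2.97 and 2.60 CPM, and the groups overlapped. Its log2 fold change of -0.22 had the widest interval of the 10 genes, from -0.59 to 0.14 (SE 0.161, edgeR FDR 0.308), and without WT replicate 1 it was -0.08.

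**Figure D3:**
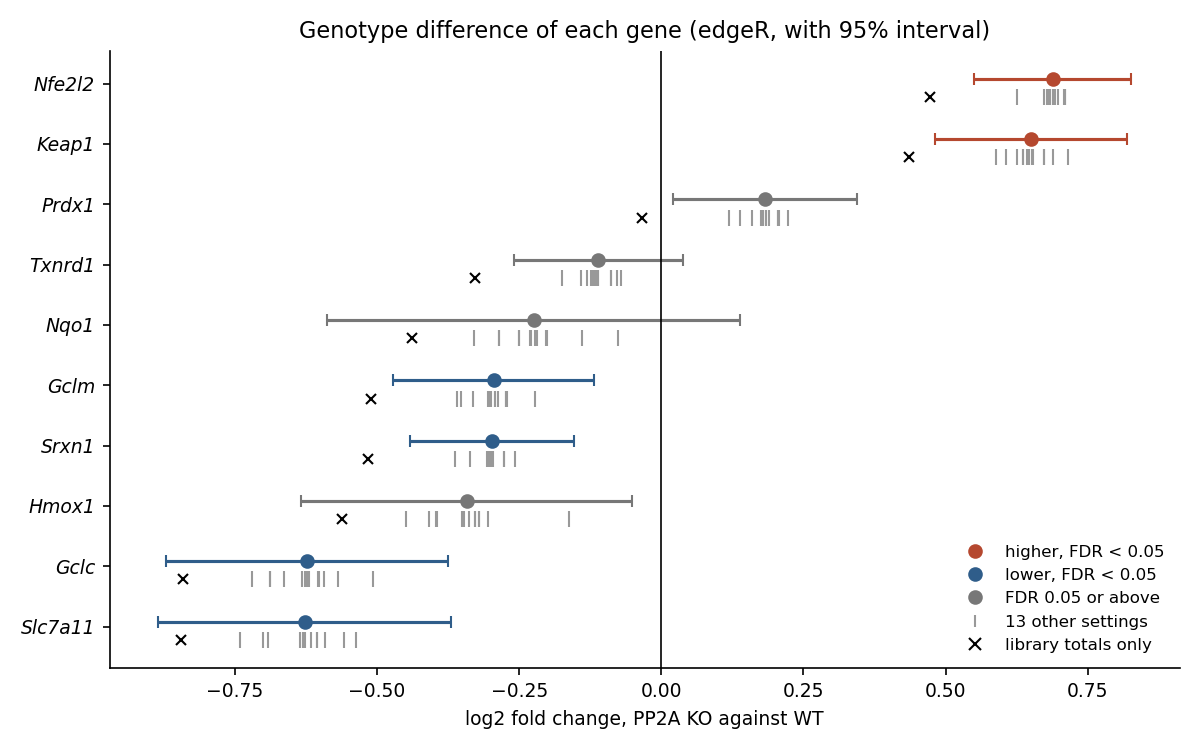
Log2 fold change of PP2A KO against WT for each of the 10 genes (horizontal axis; vertical axis, genes ordered by the change), with the 95% interval from edgeR, the values under 13 other settings of filter, scaling, model or libraries (grey ticks) and under scaling by library totals alone (crosses). *Nfe2l2* and *Keap1* stay right of 0 and *Gclc*, *Slc7a11*, *Gclm* and *Srxn1* left of 0 under every setting drawn, while *Prdx1* lies on both sides.

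The genes covered a wide range of levels per length, given here as CPM per kilobase of all annotated exons (RPKM). This length can exceed that of a single transcript, and unevenly between genes. It was 3043 bases for *Prdx1* and 1553 for *Nqo1*, against 636 and 1553 in their first transcripts. The order of the genes and their overlaps below depend on this length, while differences between the groups within a gene do not. In WT, *Prdx1* was the most abundant at 273 ± 16.1 RPKM (SD, n = 3), followed by *Nfe2l2* at 91.7 ± 2.16, *Hmox1* at 86.5 ± 17.7 and *Srxn1* at 74.0 ± 4.03 RPKM. *Hmox1* overlapped both of its neighbours in this order. *Txnrd1* was at 34.9 ± 1.31 RPKM, *Keap1* at 24.5 ± 1.93 and *Gclm* at 22.5 ± 2.04 RPKM, and the libraries of *Keap1* and *Gclm* overlapped. *Gclc* was at 10.8 ± 1.44 RPKM, and *Slc7a11* and *Nqo1* overlapped at the bottom, at 2.37 ± 0.352 and 1.98 ± 0.348 RPKM. In PP2A KO the top of the order was spread out. *Prdx1* was at 310 ± 10.7 RPKM and *Nfe2l2*, at 148 ± 1.72 RPKM, was now clear of *Hmox1* (68.2 ± 4.68) and *Srxn1* (60.2 ± 0.272). *Keap1*, at 38.5 ± 1.69 RPKM, lay above *Txnrd1* (32.3 ± 1.44) in every library, the reverse of the WT order. This reversal depends on the length used, 4693 bases for *Keap1* and 7086 for *Txnrd1*, against 3172 and 3325 in their first transcripts. In CPM, *Txnrd1* lay above *Keap1* in both groups (means of 229 and 181 in PP2A KO, 247 and 115 in WT). *Gclm* was at 18.4 ± 0.885 and *Gclc* at 6.99 ± 0.804 RPKM, and only *Nqo1* (1.70 ± 0.167) and *Slc7a11* (1.53 ± 0.146) overlapped as neighbours.

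**Figure D4:**
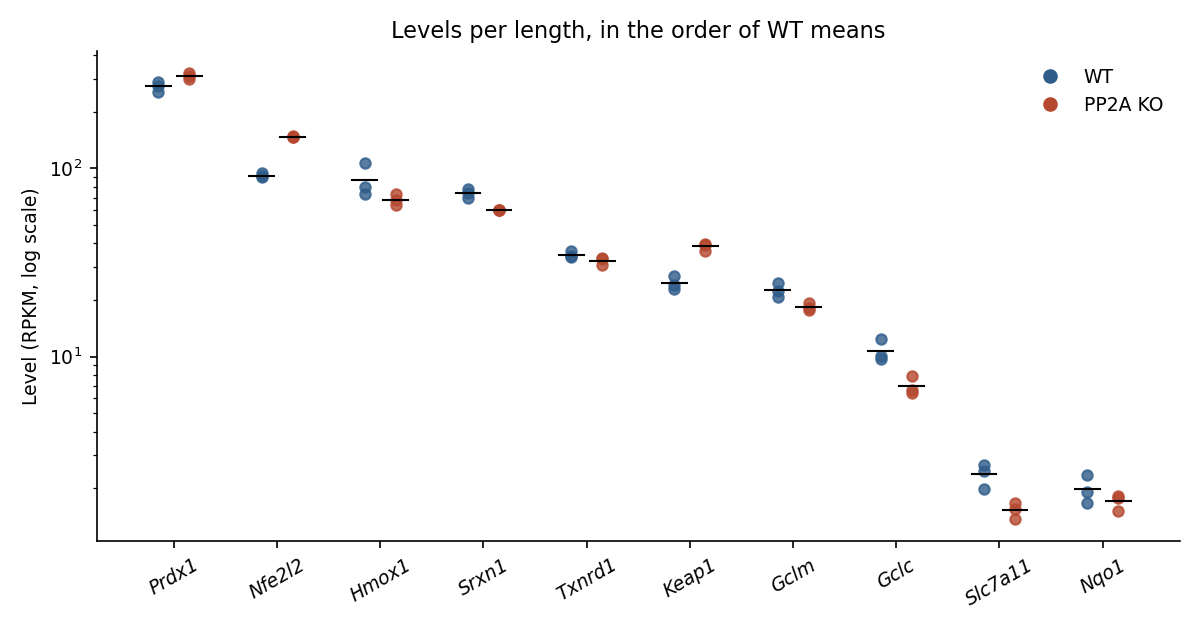
Level per length of all annotated exons of the 10 genes in RPKM (vertical log axis) in WT and PP2A KO libraries (points, with a line at the mean), in the order of the WT means. From *Prdx1* at 273 to *Nqo1* at 1.98 RPKM in WT the levels span a wide range, and *Nfe2l2* and *Keap1* stand above their WT points in PP2A KO.

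The wider pathway was described with 8 further lists of genes tied to NRF2 or to its targets, 83 of whose 88 genes were tested. Of these 83, 17 rose and 17 fell by edgeR, with a median log2 fold change of -0.03, shares near the 18.1% and 19.0% of all genes tested. With the replicate block 24 rose and 26 fell, against 24.4% and 26.4% of all genes. Scaled by library totals alone, 9 were higher and 44 lower, where 11% and 44.8% of all genes tested were.

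Of the transcription factors that share the ARE with NRF2, 3 of 7 rose and 2 fell, against 18.1% and 19.0% of all genes tested. The repressor *Bach1*, which competes with NRF2 at the *Hmox1* gene, rose (log2 fold change 0.42, SE 0.122, edgeR FDR 0.0242), from 458 to 612 CPM on average. *Bach2*, its relative known mainly from lymphocytes, fell (-1.01, SE 0.121, FDR 3.15e-04) from a low level of 12.7 CPM. The small MAF proteins pair with NRF2 and with the BACH repressors alike. *Maff* rose by 0.85 (SE 0.166, FDR 0.0034) and *Mafk* by 0.56 (SE 0.0795, FDR 6.67e-04), while *Mafg* was at -0.26 (SE 0.0867, FDR 0.0391), a call that was lost under RLE scaling (FDR 0.0619), in DESeq2 (0.0559) and in 5 of the 6 fits without 1 library, all but that without WT replicate 1 (FDR 0.0602 to 0.154), and without WT replicate 3 its value was -0.16. The *Bach1* call was lost without PP2A KO replicate 1 (FDR 0.0855), WT replicate 2 (0.0854) or WT replicate 3 (0.0548), and with library totals alone (0.20, FDR 0.122).

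Of 9 genes that control the destruction of NRF2 protein, 4 rose and none fell by edgeR, DESeq2 or limma-voom. Among all genes tested, edgeR called 18.1% higher and 19.0% lower. At an unadjusted edgeR p under 0.05, 1 of the 9 was lower, *Gsk3b*, a kinase that marks NRF2 for the β-TrCP ligase (-0.18, SE 0.0763, FDR 0.0966). It fell with the replicate block (FDR 0.00366). The genes that rose were the β-TrCP ligase subunits *Fbxw11* (0.54, SE 0.0721, FDR 4.94e-04) and *Btrc* (0.37, SE 0.0891, FDR 0.0101), the ER ligase *Syvn1* (0.31, SE 0.0567, FDR 0.00235) and *Sqstm1* (0.22, SE 0.0658, FDR 0.0261), which encodes p62, an adaptor that sequesters KEAP1 and is itself a target of NRF2. *Cul3*, the scaffold of the KEAP1 ligase, was at 0.07 (SE 0.0824, FDR 0.57). Scaled by library totals alone, 1 of the 9 was higher and 3 lower, against 11% and 44.8% of all genes. The *Sqstm1* call was lost with upper-quartile scaling (FDR 0.0998) and without PP2A KO replicate 1 (0.0967), PP2A KO replicate 2 (0.0965) or WT replicate 2 (0.0858).

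Of 20 other glutathione genes, 2 rose and 2 fell, and 16 did not pass, where 18.1% and 19.0% of all genes tested rose and fell. *Gsta3*, a glutathione transferase, fell by 1.07 on the log2 scale (SE 0.277, edgeR FDR 0.0142) at under 1 CPM. *Gpx1*, the cytosolic glutathione peroxidase, fell by 0.34 (SE 0.0882, FDR 0.0152). *Ggct*, an enzyme of glutathione breakdown, rose by 0.82 (SE 0.134, FDR 0.00143), and *Glrx*, glutaredoxin, by 0.44 (SE 0.0617, FDR 6.34e-04). The *Gpx1* call was lost without PP2A KO replicate 1 (FDR 0.0528), PP2A KO replicate 3 (0.0598) or WT replicate 2 (0.0594). *Gss*, which completes glutathione synthesis, was at -0.12 (SE 0.0799, FDR 0.279), and *Gsr*, which recycles it, was at 0.06 (SE 0.0741, FDR 0.554). Of 12 other thioredoxin genes, 3 rose and 2 fell, against the same 18.1% and 19.0%. Thioredoxin itself (*Txn1*) rose by 0.24 (SE 0.057, FDR 0.00991) and its inhibitor *Txnip* fell by 0.43 (SE 0.0859, FDR 0.00408). The peroxiredoxins *Prdx5* and *Prdx6* rose by 0.42 (SE 0.0687, FDR 0.00143) and 0.27 (SE 0.0835, FDR 0.0316), and the reductase *Txnrd3* fell by 0.72 (SE 0.106, FDR 8.45e-04). The *Txn1* call was lost without PP2A KO replicate 2 (FDR 0.051), and the *Prdx6* call in 4 of the 6 fits without 1 library (without PP2A KO replicate 1 or 2 or WT replicate 2 or 3, FDR up to 0.109) and with upper-quartile scaling (0.0675).

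The detoxification list held the most decreases, 7 of 12 against 1 increase, where 19.0% of all genes tested fell, with a median log2 fold change of -0.23. *Cbr3*, a carbonyl reductase, fell by 0.70 (SE 0.123, edgeR FDR 0.00201), *Osgin1* by 0.57 (SE 0.11, FDR 0.00328), *Ephx1*, an epoxide hydrolase, by 0.42 (SE 0.0696, FDR 0.00151) and *Ugdh*, which makes the sugar for glucuronidation, by 0.33 (SE 0.0622, FDR 0.00283). *Cat*, *Akr1b8* and *Ptgr1* fell by 0.29, 0.25 and 0.21. The aldose reductase *Akr1b3* rose by 0.31 (SE 0.0601, FDR 0.00323). The *Akr1b8* call was lost in DESeq2 (FDR 0.0651) and in 4 of the 6 fits without 1 library (without PP2A KO replicate 2 or 3 or WT replicate 1 or 2), the *Ptgr1* call under RLE scaling (0.0602), in DESeq2 (0.0934) and in 5 of the 6 (all but that without PP2A KO replicate 2), and the *Cat* call without PP2A KO replicate 2 (0.0686). Of 6 genes of NADPH supply, *Idh1* fell by 0.91 (SE 0.0991, FDR 2.01e-04), from 136 to 72.4 CPM, and the other 5 did not pass. With the replicate block 2 rose, *Pgd* and *G6pdx* of the pentose phosphate pathway, and 2 fell, against 24.4% and 26.4% of all genes.

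Of 8 genes of heme breakdown and iron handling, 1 rose and 1 fell, against 18.1% and 19.0% of all genes tested. *Hmox2*, the constitutive heme oxygenase, rose by 0.47 (SE 0.0789, edgeR FDR 0.00165), from 191 to 265 CPM on average. *Hmox1* did not pass and its groups overlapped, as given above. The heme transporter *Slc48a1* fell by 0.22 (SE 0.0621, FDR 0.0221), a call that was lost in 5 of the 6 fits without 1 library, all but that without WT replicate 1 (FDR 0.0662 to 0.0805). The ferritin genes were the most abundant of all lists, with *Fth1* at 21195 and 21421 CPM in PP2A KO and WT (log2 fold change -0.02, SE 0.0881, FDR 0.907) and *Ftl1* at -0.17 (SE 0.103, FDR 0.223, with the block FDR 0.0135). With the replicate block 1 rose and 4 fell, against 24.4% and 26.4% of all genes. *Slc40a1*, the iron exporter ferroportin, was at -0.43 (SE 0.192, FDR 0.112), with a block FDR of 1.66e-05.

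*Slc7a11* is also a target of ATF4, the factor of the amino acid and stress response whose element is printed above. Of the 9 genes of the ATF4 list 3 were higher and 2 lower, against 18.1% and 19.0% of all genes tested. *Ddit3*, which encodes CHOP, rose by 0.71 (SE 0.0906, edgeR FDR 4.32e-04), the amino acid transporter *Slc7a5* by 0.59 (SE 0.107, FDR 0.00232) and *Sesn2* by 0.26 (SE 0.0800, FDR 0.0305). The serine synthesis genes *Phgdh* and *Psat1* fell by 0.68 (SE 0.206, FDR 0.0287) and 0.53 (SE 0.0775, FDR 8.02e-04). *Atf4* itself was at 0.25 (SE 0.0912, FDR 0.0587), with a block FDR of 0.00242, and *Asns* was at -0.34 (SE 0.136, FDR 0.0806), with a block FDR of 0.00265. The *Phgdh* call was lost in 4 of the 6 fits without 1 library (without PP2A KO replicate 1 or 2 or WT replicate 2 or 3, FDR up to 0.107), and the *Sesn2* call in 5 of the 6 (all but that without WT replicate 2, FDR up to 0.111) and with upper-quartile scaling (0.107).

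**Figure D5:**
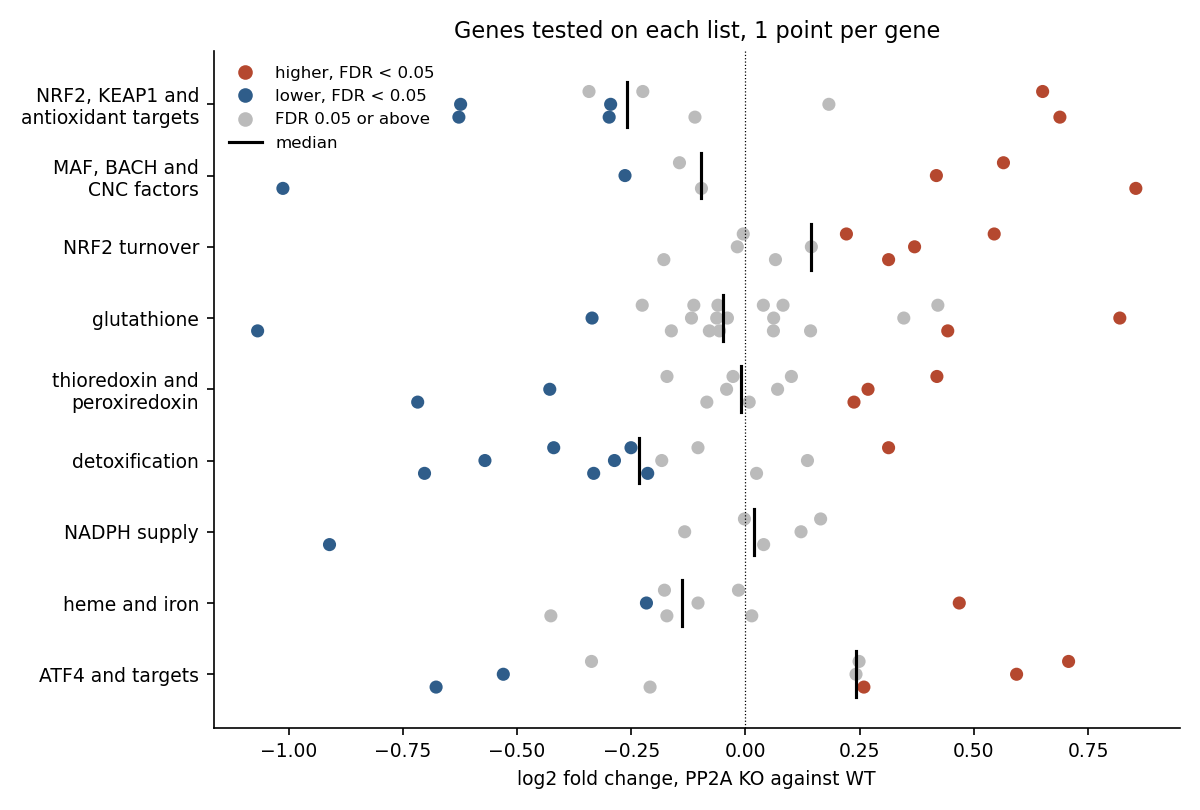
Log2 fold change of PP2A KO against WT (horizontal axis) for each tested gene of the 10 NRF2, KEAP1 and antioxidant target genes and of the 8 further lists (rows, 1 point per gene, with a line at the median), coloured by the edgeR call at FDR under 0.05. The detoxification row has 7 points called lower and 1 higher, the NRF2 turnover row 4 higher and none lower, and the other rows have calls on both sides or, for NADPH supply, 1 lower. Of all genes tested, 18.1% were called higher and 19.0% lower.

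Among the genes nearest in profile to the falling targets, by the measure used for *Nfe2l2*, were *Gpr157* (0.0229) and *Sqle* (0.0245), an enzyme of cholesterol synthesis, for *Gclc*. For *Srxn1* the nearest were *Fmnl1* (0.0124), *Pwwp3a* (0.0194) and *Zfp553* (0.0234), for *Gclm* *Tada1* (0.0285), *1700020I14Rik* (0.0303) and *Zfp715* (0.0308), and for *Slc7a11* *Gm45094* (0.0330), *Fnip2* (0.0401) and *Zmiz1* (0.0676). *Asns*, an ATF4 target for asparagine synthesis, was among the 3 nearest to *Hmox1* (0.0640), behind *Prodh* (0.0470) and *Osgepl1* (0.0532). None of the 10 genes was among the 3 nearest genes of another. With 3 places for 13680 tested genes, this absence says little about whether the 10 genes moved alike. Each likeness was taken over 6 libraries of 2 groups, so that it reflects the group difference as well as the spread within groups.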

How the data were processed

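Mouse BMDM were sequenced as 3 PP2A KO and 3 WT poly(A) RNA-Seq libraries (directional kit, paired ends). The authors deposited 1 table of raw counts per gene without normalization, on mm10 (GRCm38). The submitters' processing notes name fastp 0.20.0, kallisto 0.46.1, STAR 2.7.1a, HTSeq 0.11.2, edgeR 3.34.0 and limma 3.48.3 without their roles. The strand setting of counting is not given in the sources used here. Groups and replicates came from the labels.

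In R 4.3.3, edgeR 4.0.16 kept genes by filterByExpr (minimum count 10, minimum total 15), scaled them by TMM and fitted genotype alone with the quasi-likelihood test, with Benjamini-Hochberg adjustment over 13680 genes and a call at FDR under 0.05. CPM carry the TMM factors (0.910 to 0.937 in PP2A KO, 1.05 to 1.10 in WT). RPKM divide them by the length of all GENCODE M21 exons of a gene, and 98.4% of symbols matched. A level equal to 3 counts is 0.0604 to 0.0909 CPM, which covers counting error only. Within-library ratios were compared with exact permutation tests. The members and lists were chosen with earlier results of these data known. Members are all named, with up to 5 called genes of largest change per list and, beyond this rule, *Cul3*, *Gsk3b*, *Gss*, *Gsr*, *Slc3a2*, *Cat*, *Akr1b8*, *Ptgr1*, *Pgd*, *G6pdx*, *Fth1*, *Ftl1*, *Slc40a1*, *Atf4*, *Asns*, *Lyz2*, *Xist* and the zero markers, which were picked after their values were seen. Promoter windows came from RefSeq. Profiles were compared by root mean square difference, and not every gene found is reported here.

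Both genotypes carry replicate numbers 1, 2 and 3 in the labels. Same-numbered libraries deviated together from their group means (correlations 0.289, 0.148 and 0.337), and unlike numbers gave -0.258 to -0.031. Centring on the mean of 3 libraries ties these values to each other, and neither labels nor study say what the numbers mark. The numbers were assumed to pair the samples, and a fit with the replicate block was run beside the main one. The assumption was read from these same data, so the block FDRs depend on it and do not test it. Also tried were 2 other scalings (RLE, upper quartile), other filters (none, or 10 counts in every library), omission of each library, DESeq2 1.42.0, limma-voom (limma 3.58.1) and, chosen after seeing the data, library totals alone.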

Additional observations from a re-analysis of the deposited data

How the results depend on the processing

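*Nfe2l2*, *Keap1*, *Gclc*, *Srxn1* and *Slc7a11* kept direction and call under all 14 alternatives, with log2 fold changes of 0.47 to 0.71, 0.44 to 0.72, -0.84 to -0.51, -0.52 to -0.26 and -0.84 to -0.54. Library totals alone, chosen after seeing the data, moved the median of all genes from -0.02 to -0.24, the genes higher and lower from 2470 and 2604 to 1503 and 6125, the members lower from 4 to 7 of 10 (44.8% of all genes), and the genes of the 8 lists to 9 higher and 44 lower. Under it *Hmox1* (-0.56), *Nqo1* (-0.44) and *Txnrd1* (-0.33) passed and *Prdx1* turned to -0.033. Relative to the median, the members differed little between both scalings (*Nfe2l2* 0.71 and 0.71, *Gclc* -0.60 and -0.60). This was fixed in advance, because a change of scaling moves all genes and their median by nearly the same amount. It is therefore no check of the calls. *Hmox1* also passed with upper-quartile scaling (-0.41), without a filter (-0.35), with the replicate block (-0.33) and in DESeq2 (-0.32), and *Prdx1* with the block (0.18) and in DESeq2 (0.20). The block changed no other member call and raised the lower genes of the 8 lists from 17 to 26. Of all genes tested, the share called lower went from 19.0% to 26.4%. Limma-voom changed no member call.

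With 1 library left out in turn, *Gclm* ranged from -0.35 to -0.22 and was lost in 3 of 6 cases, and *Hmox1* ranged from -0.45 (without WT replicate 1, where it passed) to -0.16. The lower genes of the 8 lists ranged from 11 (without WT replicate 2) to 19. Members lower ranged from 3 to 5. Which cause lies behind these changes was not tested. *Nqo1* had the fewest counts of the members, 91 to 182 per library. Among called genes of the 8 lists, *Btrc* (0.16), *Syvn1* (0.10), *Sqstm1* (0.0039), *Txn1* (0.02), *Prdx6* (0.05), *Akr1b3* (0.10) and *Sesn2* (0.04) also no longer passed with library totals alone.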
